A study of Mus musculus with 36 samples.

Results

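The 10 genes described here encode the death receptor signalling complex and the machinery of necroptosis, an inflammatory form of cell death that breaks the plasma membrane. They are the adaptor Fadd, the protease Casp8 and its catalytically inactive relative Cflar (cFLIP), the kinases Ripk1 and Ripk3, the pore-forming executioner Mlkl, the nucleic acid sensor Zbp1, and the receptors Fas, Tnfrsf1a (TNFR1) and Tnfrsf10b (the mouse TRAIL receptor). They were taken by symbol, and each symbol matched 1 Ensembl gene in the tables, so they are 10 of the 52636 genes counted in each of 36 mRNA-seq libraries.

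The libraries came from whole intestines of E18.5 mouse embryos and from primary mouse embryonic fibroblasts (MEFs), in 12 groups of 3 libraries labelled as biological replicates and untreated. Mice were of the C57BL/6N strain. The first set of intestines, called the D387A set here, held Mlkl KO (the control), Casp8 D387A KI and Casp8 D387A KI Cflar KO Mlkl KO. It also held that last genotype with Casp1 KO added, with Casp1 KO and Ifnar1 KO added, or with Casp1 KO and Fadd KO added. The C362A set held its own Mlkl KO control, Casp8 C362A KI Mlkl KO, Casp8 C362A KI Mlkl KO Casp1 KO and Casp8 C362A KI Cflar KO Mlkl KO. The MEFs were Mlkl KO and Casp8 D387A KI Cflar KO Mlkl KO. Casp8 D387A KI Cflar KO Mlkl KO is called the D387A Cflar Mlkl genotype from here on, and Casp8 C362A KI Cflar KO Mlkl KO the C362A Cflar Mlkl genotype. Where the D387A set is described, "with Casp1 KO", "with Ifnar1 KO" and "with Fadd KO" stand for the D387A Cflar Mlkl genotype with Casp1 KO, with Casp1 KO and Ifnar1 KO, and with Casp1 KO and Fadd KO.

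Every group except Casp8 D387A KI carried Mlkl KO, the controls included, so no group had an unmodified Casp8, Cflar and Mlkl together. The D387A change removes a site at which caspase-8 cuts itself, and the C362A change removes its catalytic cysteine. The D387A Cflar Mlkl line descends from 1 founder edited with Cas9, which carried a deletion within Mlkl and a large deletion within Cflar. The C362A line has a different, much shorter Cflar deletion made on an existing Mlkl KO background. These alleles remove part of a gene, so reads on the remaining exons of Mlkl, Cflar or another targeted gene are still counted. The level of such a gene is a level of leftover transcript and not of a protein that works. Which Mlkl deletion each Mlkl KO group carries is not given by the labels, so levels of Mlkl, and ratios with them, could also differ by allele, which was not tested. In the Casp8 D387A KI embryos Mlkl and Cflar were intact.

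In outline, a ligand-bound death receptor recruits FADD through shared death domains, and FADD recruits caspase-8, alone or paired with cFLIP. Caspase-8 with full activity starts apoptosis, and at lower activity it cuts RIPK1 and related proteins and so keeps necroptosis in check. RIPK1 and ZBP1 bind RIPK3 through short RHIM motifs, RIPK3 then phosphorylates MLKL, and MLKL oligomers permeabilise the plasma membrane. In the intestinal epithelium this control is known to matter, since loss of caspase-8 or FADD there leads to death of epithelial cells. Zbp1 and Mlkl are also well known as genes that interferons induce.

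The promoters of Mlkl, Ripk3 and Fas are shown because these genes, among the members with a RefSeq promoter entry, were the ones called over 2-fold in most mutant intestines. Each is the 250 bases before the RefSeq transcription start on assembly GRCm38.p6, on the gene's own strand. The Mlkl window is at chr8:111338206-111338455 on the minus strand, the Ripk3 window at chr14:55788858-55789107 on the minus strand and the Fas window at chr19:34290409-34290658 on the plus strand. Capitals mark a match to the searched motifs.
Mlkl: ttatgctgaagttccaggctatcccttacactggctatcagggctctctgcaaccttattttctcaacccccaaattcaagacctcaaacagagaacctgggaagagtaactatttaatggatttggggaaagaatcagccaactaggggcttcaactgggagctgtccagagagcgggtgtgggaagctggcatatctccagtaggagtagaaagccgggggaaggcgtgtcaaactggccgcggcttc
Ripk3: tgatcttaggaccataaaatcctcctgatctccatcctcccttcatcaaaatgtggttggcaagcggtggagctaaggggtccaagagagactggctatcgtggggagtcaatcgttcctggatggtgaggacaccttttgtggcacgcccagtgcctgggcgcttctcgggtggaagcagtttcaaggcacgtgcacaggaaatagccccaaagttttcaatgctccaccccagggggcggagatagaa
Fas: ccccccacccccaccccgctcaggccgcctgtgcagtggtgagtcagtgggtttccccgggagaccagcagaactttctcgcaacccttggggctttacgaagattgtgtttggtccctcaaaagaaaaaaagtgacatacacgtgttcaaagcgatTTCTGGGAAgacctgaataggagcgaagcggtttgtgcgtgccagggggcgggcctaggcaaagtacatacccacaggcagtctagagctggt

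Of the 10 members, 8 had such an entry (all but Zbp1 and Tnfrsf10b). Both strands were searched for GAAANNGAA, a shortened core of the interferon-stimulated response element, which 7.13% of 32851 RefSeq promoters of the same length hold. They were also searched for TTCNNNGAA, the STAT element, which 7.02% hold. The Fas promoter held 1 TTCNNNGAA match, 93 to 85 bases before the start, and the Mlkl and Ripk3 windows held no match to either motif. Tnfrsf1a held a TTCNNNGAA match 244 to 236 bases before its start. One of the Ripk1 starts had a pair of such matches, at 108 to 100 and at 11 to 3 bases before it. No member promoter matched GAAANNGAA.

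On GRCm38 the genes lie at chr1:58795374-58847503 (Casp8, plus strand), chr1:58711508-58758884 (Cflar, plus), chr7:144577318-144582463 (Fadd, minus), chr13:34002363-34037147 (Ripk1, plus), chr14:55784995-55788865 (Ripk3, minus), chr8:111311797-111338177 (Mlkl, minus), chr2:173206612-173218923 (Zbp1, minus), chr19:34290666-34327772 (Fas, plus), chr6:125349362-125362484 (Tnfrsf1a, plus) and chr14:69767472-69784411 (Tnfrsf10b, plus). Casp8 and Cflar are thus neighbours on chromosome 1. Ripk1 shares 241 exonic bases with Serpinb6a on the opposite strand, a gene with 499727 reads over the 36 libraries, so part of the Ripk1 count could be Serpinb6a reads if the counting ignored strand. Fadd shares 239 exonic bases with the antisense transcript Faddos, which had 63 reads in all.

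Reads on genes ran from 17943524 to 27721024 per library in the D387A set, from 21757868 to 31052238 in the C362A set and from 20927014 to 32307629 in the MEFs. Levels of members are given as RPKM, which are reads per kilobase of the files' gene width scaled by library totals that were TMM-adjusted within a set. A level from one set was therefore scaled separately from a level of another. Marker lists are given as summed CPM, which use the same totals without the gene width. Epithelial markers (7 genes such as Epcam and Vil1) summed to 3340 to 5516 CPM in the intestines and 40.5 to 67.4 CPM in the MEFs. Fibroblast markers (5 genes such as Col1a1) summed to 21328 to 24362 CPM in the Mlkl KO MEFs and 21997 to 23422 CPM in the mutant MEFs. Casp1 had 0 to 5 reads in every library labelled Casp1 KO and 952 to 3489 in the other intestines. Ifnar1 stood at 33.2 to 37.9 CPM in the libraries labelled Ifnar1 KO and at 76.1 to 93.6 CPM in the rest of the D387A set. Sample names in the D387A set carry a number that Mlkl KO and the D387A Cflar Mlkl genotype share and that differs for each other genotype. Whatever that number stands for cannot be told apart from genotype in the other comparisons of that set.

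Libraries within a genotype differed to unequal degrees, measured as the chi-square per gene between a pair. Replicate 3 with Casp1 KO in the D387A set differed from the other two by 63.4 and 64.9 per gene, against 12.2 between those. In that library the 9 interferon-stimulated genes followed here (Isg15, Ifit1, Ifit3, Rsad2, Oasl2, Irf7, Usp18, Oas2 and Irf1) summed to 5192 CPM, against 1017 and 1409 CPM in the other two. Its Mlkl, Zbp1, Ripk3 and Fas levels were also above theirs. Results of members that passed the test with or without it are given both ways where the side of the threshold or the direction changes, or the value moves by over 1.5 times. Replicate 3 of the C362A Cflar Mlkl genotype also stood apart, by 60.2 and 59.5 per gene against 22.1 between the other two. Its interferon-stimulated genes summed to 3577 CPM, against 2680 and 2356 CPM. Without it, the results of members that changed their side of the threshold were Ripk1 against Mlkl KO and the Tnfrsf10b difference between the sets, both given below. Replicate 1 with Ifnar1 KO differed from the other two by 31.2 and 27.4 per gene, against 5.16 between those, and had the lowest Fas level of the 3. Without it, Ripk3 on Ifnar1 loss was the member result that no longer passed the test, also given below. The C362A Mlkl KO controls were uneven too. Their replicates 1 and 3 differed by 63.0 per gene, against 24.9 and 22.5 for the pairs with replicate 2.

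A log2 fold change below is the first genotype over the second from edgeR's quasi-likelihood test across all genes of a set, with its standard error (SE) and the Benjamini-Hochberg adjusted p. A gene passed the test at an adjusted p under 0.05. It was called where it also differed by over 2-fold, which is the study's threshold. All comparisons with Mlkl KO within a set share the same 3 control libraries and are not independent of each other.

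FADD is the adaptor that links receptors to caspase-8, and its gene was the deleted one in the Fadd KO embryos. Its level there was 0.204, 0.259 and 0.169 RPKM in the 3 libraries, 56 reads in all, against 9.63, 11.1 and 10.8 RPKM with Casp1 KO. The label and the reads thus match, with a log2 fold change of -5.63 ± 0.12 (SE, adjusted p = 6.85e-15). Fadd was at 12.9, 11.98 and 11.5 RPKM in Mlkl KO of the D387A set and at 9.75, 11.01 and 9.65 RPKM in the D387A Cflar Mlkl genotype. The latter was lower, with a log2 fold change of -0.26 ± 0.08 (SE, adjusted p = 0.0129), and the groups did not overlap. This did not pass without Mlkl KO replicate 1 (-0.21, adjusted p = 0.0726), mutant replicate 1 (-0.23, adjusted p = 0.0525) or mutant replicate 3 (-0.22, adjusted p = 0.0578). With Ifnar1 KO Fadd was at 10.6, 9.31 and 10.1 RPKM, lower than Mlkl KO with a log2 fold change of -0.28 ± 0.08 (SE, adjusted p = 0.0106), which did not pass without Ifnar1 KO replicate 2 (-0.23, adjusted p = 0.0559).

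The C362A set had a Fadd level of 10.3, 10.7 and 9.47 RPKM in Mlkl KO and 8.49, 7.58 and 7.63 RPKM in Casp8 C362A KI Mlkl KO. It was 11.3, 9.61 and 10.4 RPKM with Casp1 KO and 8.24, 6.53 and 7.74 RPKM in the C362A Cflar Mlkl genotype. Fadd fell against Mlkl KO in both Casp8 C362A KI Mlkl KO and the C362A Cflar Mlkl genotype, with log2 fold changes of -0.36 ± 0.11 (SE, adjusted p = 0.0164) and -0.44 ± 0.11 (SE, adjusted p = 0.00425). The first of these did not pass without Mlkl KO replicate 2 (-0.33, adjusted p = 0.0585) or mutant replicate 2 (-0.34, adjusted p = 0.0608) or 3 (-0.34, adjusted p = 0.063). Loss of Casp1 raised Fadd by 0.40 ± 0.11 (SE, adjusted p = 0.0133), which did not pass without Casp8 C362A KI Mlkl KO replicate 2 (0.37, adjusted p = 0.0525) or 3 (0.37, adjusted p = 0.0566) or Casp1 KO replicate 1 (0.33, adjusted p = 0.0596). MEFs of both genotypes had 3.62 to 4.26 RPKM, with a log2 fold change of -0.09 ± 0.10 (SE, adjusted p = 0.931).

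Casp8, the initiator protease, had a higher transcript level in most mutant intestines other than Casp8 D387A KI. It was at 25.9, 25.9 and 24.9 RPKM in Mlkl KO of the D387A set and 26.5, 23.1 and 25.5 RPKM in Casp8 D387A KI, and these groups overlapped. It was at 42.4, 37.2 and 42.4 RPKM in the D387A Cflar Mlkl genotype and 25.8, 24.5 and 35.5 RPKM with Casp1 KO. All 3 libraries of the D387A Cflar Mlkl genotype lay above all 3 controls, a log2 fold change of 0.67 ± 0.11 (SE, adjusted p = 7.88e-05). The levels were 33.9, 33.3 and 39.6 RPKM with Ifnar1 KO and 32.04, 35.7 and 33.6 RPKM with Fadd KO. Against Mlkl KO these were higher by 0.48 ± 0.11 (SE, adjusted p = 0.0025) and 0.40 ± 0.11 (SE, adjusted p = 0.0216). The second of these did not pass on leaving out any 1 Mlkl KO library or Fadd KO replicate 2, with values of 0.36 to 0.41 and adjusted p from 0.0553 to 0.0874.

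Loss of Casp1 lowered Casp8 in the D387A Cflar Mlkl background, with a log2 fold change of -0.51 ± 0.11 (SE, adjusted p = 0.00151), or -0.69 (adjusted p = 5.25e-06) without Casp1 KO replicate 3. Adding Ifnar1 KO to the Casp1 KO genotype raised it by 0.32 ± 0.11 (SE, adjusted p = 0.0444). That rise did not pass without Casp1 KO replicate 1 (0.25, adjusted p = 0.181) or 2 (0.22, adjusted p = 0.217) or Ifnar1 KO replicate 2 (0.36, adjusted p = 0.0595) or 3 (0.23, adjusted p = 0.195), and was 0.50 without Casp1 KO replicate 3.

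In C362A intestines Casp8 was at 34.1, 29.6 and 24.2 RPKM in Mlkl KO and 49.2, 47.3 and 49.9 RPKM in Casp8 C362A KI Mlkl KO. It was at 42.2, 41.4 and 38.7 RPKM with Casp1 KO and 50.6, 46.7 and 51.6 RPKM in the C362A Cflar Mlkl genotype. Each mutant group lay above its control group without overlap. The log2 fold changes were 0.74 ± 0.12 (SE, adjusted p = 0.000166), 0.47 ± 0.12 (SE, adjusted p = 0.00681) and 0.76 ± 0.12 (SE, adjusted p = 9.14e-05) in that order. In MEFs Casp8 was at 12.53, 15.7 and 14.2 RPKM in Mlkl KO and 14.2, 16.4 and 15.3 RPKM in the mutant. These overlapped, with a log2 fold change of 0.11 ± 0.09 (SE, adjusted p = 0.894).

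Cflar encodes cFLIP, the partner that limits caspase-8 in the complex. Because both Cflar KO alleles leave part of the gene, its transcript remained countable at 4.69, 4.2998 and 4.896 RPKM in D387A Cflar Mlkl intestines. It was at 5.804, 6.42 and 6.02 RPKM in Mlkl KO and 6.73, 5.58 and 6.04 RPKM in Casp8 D387A KI. It was lower than in Mlkl KO, with a log2 fold change of -0.39 ± 0.10 (SE, adjusted p = 0.0022). The other genotypes that carry the same Cflar allele had 5.38, 6.03 and 6.04 RPKM with Casp1 KO, 6.64, 6.49 and 6.76 RPKM with Ifnar1 KO and 5.57, 6.54 and 7.55 RPKM with Fadd KO. These overlapped with or lay above Mlkl KO. From the D387A Cflar Mlkl genotype to its Casp1 KO derivative Cflar rose by 0.33 ± 0.10 (SE, adjusted p = 0.0105), which did not pass without D387A Cflar Mlkl replicate 2 (0.28, adjusted p = 0.0522).

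The C362A Cflar Mlkl intestines had 5.64, 5.04 and 5.58 RPKM of Cflar. That was below the 6.99, 6.93 and 7.27 RPKM of Mlkl KO and the 7.95, 8.76 and 9.21 RPKM of Casp8 C362A KI Mlkl KO. The log2 fold change was -0.38 ± 0.10 (SE, adjusted p = 0.00663) against Mlkl KO and -0.67 ± 0.10 (SE, adjusted p = 0.000685) against the same Casp8 change with Cflar intact. Casp8 C362A KI Mlkl KO itself was above Mlkl KO by 0.29 ± 0.10 (SE, adjusted p = 0.0349), which did not pass without any 1 Mlkl KO library or mutant replicate 2 or 3 (0.24 to 0.31, adjusted p from 0.0542 to 0.139). In MEFs Cflar went from 10.9, 10.8 and 11.7 RPKM to 7.17, 7.098 and 7.66 RPKM (log2 fold change -0.61 ± 0.06, adjusted p = 0.0114), and it was the only member that passed the test there. It did not pass on leaving out replicate 1 (-0.62, adjusted p = 0.0508) or 2 (-0.63, adjusted p = 0.0666) of Mlkl KO or replicate 2 (-0.59, adjusted p = 0.0995) or 3 (-0.64, adjusted p = 0.0516) of the mutant. With replicate number as a block, a pairing inferred from these data and not given by the labels, the log2 fold change was -0.61 (adjusted p = 0.00379).

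The ratio of Casp8 to Cflar RPKM was 4.04 to 4.46 in Mlkl KO of the D387A set and 8.64 to 9.04 in the D387A Cflar Mlkl genotype. It was 3.33 to 4.88 in Mlkl KO of the C362A set and 8.97 to 9.26 in the C362A Cflar Mlkl genotype. In MEFs it was 1.15 to 1.46 and 1.98 to 2.31. Mutant and control ratios did not overlap in these 3 pairs of groups. The genotypes that carry the same Cflar allele as the D387A Cflar Mlkl genotype had lower ratios than it, at 4.07 to 5.87 with Casp1 KO, 5.11 to 5.85 with Ifnar1 KO and 4.45 to 5.75 with Fadd KO. The first and last of these overlapped Mlkl KO. The ratios are of transcripts counted over the remaining Cflar exons and carry no test.

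**Figure D1:**
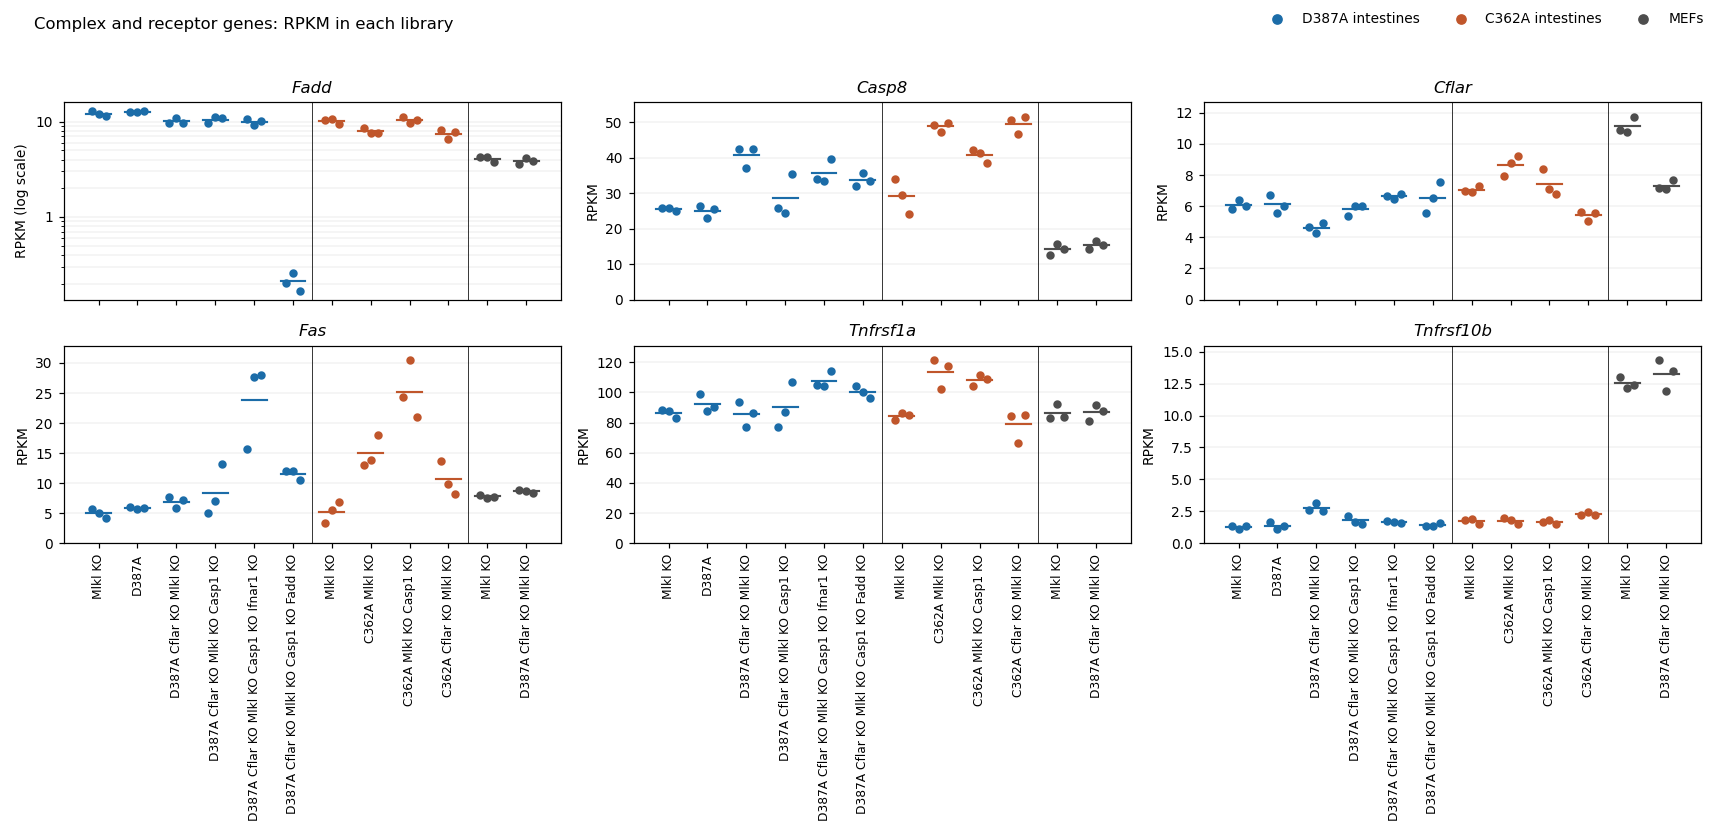
Levels in RPKM (y axis, log scale for Fadd and linear from 0 for Casp8, Cflar, Fas, Tnfrsf1a and Tnfrsf10b) in 12 groups (x axis), with a point for each library and a bar at the mean of 3. Fadd drops to 0.169 to 0.259 RPKM in the Fadd KO group, Casp8 is higher in most mutant intestines, and Tnfrsf10b stands far higher in MEFs than in intestines.

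RIPK1, the kinase and scaffold of the TNFR1 complex, had a narrower range of levels than Ripk3. Its levels ran from 8.42 to 13.3 RPKM over the 18 libraries of the D387A set. They ran from 6.42 to 12.2 RPKM over the 12 of the C362A set and from 9.56 to 11.3 RPKM over the 6 MEF libraries. Against Mlkl KO it passed the test with Ifnar1 KO, higher by 0.30 ± 0.10 (SE, adjusted p = 0.0157). This did not pass without Mlkl KO replicate 3 (0.22, adjusted p = 0.0955) or Ifnar1 KO replicate 2 (0.28, adjusted p = 0.0544) or 3 (0.27, adjusted p = 0.0644). Cflar loss in the C362A background lowered it from 11.1, 11.2 and 11.9 RPKM to 7.24, 6.42 and 9.49 RPKM without overlap, a log2 fold change of -0.56 ± 0.13 (SE, adjusted p = 0.00988). Against Mlkl KO, at 9.77, 10.6 and 8.66 RPKM, the C362A Cflar Mlkl group overlapped, and the log2 fold change was -0.33 ± 0.13 (SE, adjusted p = 0.0542). This passed without mutant replicate 3 (-0.51, adjusted p = 0.00183) or Mlkl KO replicate 3 (-0.37, adjusted p = 0.0459).

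Ripk3, the kinase that activates MLKL, was higher in most mutant intestines other than Casp8 D387A KI. It was at 16.6, 18.3 and 17.2 RPKM in Mlkl KO and 20.6, 21.6 and 18.2 RPKM in Casp8 D387A KI, where the log2 fold change of 0.21 ± 0.22 (SE, adjusted p = 0.976) did not pass the test. It was at 50.4, 45.2 and 47.4 RPKM in the D387A Cflar Mlkl genotype and 61.9, 48.8 and 54.2 RPKM with Ifnar1 KO. These were higher than Mlkl KO by 1.46 ± 0.22 (SE, adjusted p = 2.46e-05) and 1.66 ± 0.22 (SE, adjusted p = 1.64e-05). It was at 31.3, 27.1 and 28.1 RPKM with Fadd KO, higher by 0.73 ± 0.22 (SE, adjusted p = 0.0295). Leaving out any 1 of the 6 libraries of the last comparison moved it to between 0.66 and 0.78, with adjusted p from 0.0544 to 0.0945. Adding Ifnar1 KO to the Casp1 KO genotype raised Ripk3 by 0.74 ± 0.22 (SE, adjusted p = 0.0171), which did not pass without Casp1 KO replicate 1 (0.52, adjusted p = 0.0899) or 2 (0.56, adjusted p = 0.0939) or Ifnar1 KO replicate 1 (0.65, adjusted p = 0.0503), and was 1.25 without Casp1 KO replicate 3.

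With Casp1 KO Ripk3 was at 21.99, 24.1 and 52.5 RPKM. Replicates 1 and 2 lay above all controls, and replicate 3 lay above all 3 libraries of the D387A Cflar Mlkl genotype. Against Mlkl KO the log2 fold change was 0.92 ± 0.22 (SE, adjusted p = 0.00764) with it and 0.41 (adjusted p = 0.0111) without it. On loss of Casp1 it was -0.54 ± 0.22 (SE, adjusted p = 0.0519) with it and -1.05 (adjusted p = 1.98e-07) without it.

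Ripk3 in the C362A set was at 19.5, 16.01 and 18.8 RPKM in Mlkl KO and 53.6, 44.4 and 52.5 RPKM in Casp8 C362A KI Mlkl KO. It was at 46.3, 45.2 and 40.6 RPKM with Casp1 KO and 43.4, 41.4 and 46.1 RPKM in the C362A Cflar Mlkl genotype. All 9 mutant libraries lay above the 3 controls, with log2 fold changes of 1.47 ± 0.11 (SE, adjusted p = 1.15e-07), 1.28 ± 0.11 (SE, adjusted p = 1.11e-06) and 1.27 ± 0.11 (SE, adjusted p = 3.86e-07). Within that background neither Casp1 loss (-0.19 ± 0.11, adjusted p = 0.205) nor Cflar loss (-0.20 ± 0.11, adjusted p = 0.226) passed the test. In MEFs Ripk3 was at 37.01, 41.7 and 46.8 RPKM in Mlkl KO and at 37.4, 39.8 and 49.1 RPKM in the mutant. These overlapped, with a log2 fold change of 0.01 ± 0.12 (SE, adjusted p = 0.991).

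Mlkl, the executioner of necroptosis, was deleted in part in all groups but Casp8 D387A KI. Its reads were at 2.44, 2.39 and 2.67 RPKM in Mlkl KO of the D387A set and at 6.94, 6.84 and 5.42 RPKM in Casp8 D387A KI, where the gene is intact. These groups did not overlap, but the log2 fold change of 1.35 ± 0.53 (SE, adjusted p = 0.966) did not pass the test when all 6 genotypes shared a spread. It passed in a fit of those 2 genotypes alone (adjusted p = 0.00209). The intact gene and the D387A change cannot be told apart in this comparison.

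Among the genotypes with the Mlkl deletion, the D387A Cflar Mlkl intestines had 13.2, 11.1 and 13.4 RPKM and those with Casp1 KO had 3.13, 3.72 and 22.99 RPKM. The level was 22.9, 27.9 and 27.4 RPKM with Ifnar1 KO and 27.6, 30.2 and 31.2 RPKM with Fadd KO. Each library of these 4 groups lay above every control. The log2 fold changes against Mlkl KO were 2.33 ± 0.52 (SE, adjusted p = 0.000899) for the D387A Cflar Mlkl genotype, 3.38 ± 0.52 (SE, adjusted p = 5.76e-05) with Ifnar1 KO and 3.57 ± 0.52 (SE, adjusted p = 0.000162) with Fadd KO. With Casp1 KO the value was 1.99 ± 0.52 (SE, adjusted p = 0.0123), and 0.45 (adjusted p = 0.0444) without replicate 3. With all libraries it did not pass with limma-voom (1.34, adjusted p = 0.105) or in a fit of those 2 genotypes alone (1.99, adjusted p = 0.119).

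Loss of Casp1 had no fixed direction for Mlkl. The log2 fold change was -0.34 ± 0.46 (SE, adjusted p = 0.568). It was -1.88 (adjusted p = 4.44e-09) without Casp1 KO replicate 3, and it turned to 0.083 and 0.051 without replicates 1 and 2. Adding Ifnar1 KO raised Mlkl by 1.39 ± 0.46 (SE, adjusted p = 0.0299), and adding Fadd KO by 1.58 ± 0.46 (SE, adjusted p = 0.0246). Without Casp1 KO replicate 3 these were 2.92 (adjusted p = 3.7e-10) and 3.11 (adjusted p = 3.03e-10). Without replicate 1 they were 0.97 (adjusted p = 0.11) and 1.16 (adjusted p = 0.0839), and without replicate 2 they were 0.998 (adjusted p = 0.123) and 1.19 (adjusted p = 0.083). Leaving out Ifnar1 KO replicate 2 (1.34, adjusted p = 0.079) or 3 (1.36, adjusted p = 0.0737), or Fadd KO replicate 2 (1.57, adjusted p = 0.0597) or 3 (1.55, adjusted p = 0.0529), also left the respective value short of the threshold.

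The Mlkl level in the C362A set was 1.07, 1.25 and 1.94 RPKM in Mlkl KO and 14.99, 18.03 and 17.8 RPKM in Casp8 C362A KI Mlkl KO. It was 28.01, 30.8 and 24.01 RPKM with Casp1 KO and 13.3, 9.14 and 9.66 RPKM in the C362A Cflar Mlkl genotype. No 2 of the 4 groups overlapped. The rises against Mlkl KO were 3.59 ± 0.21 (SE, adjusted p = 1.18e-08), 4.29 ± 0.22 (SE, adjusted p = 3.43e-09) and 2.92 ± 0.21 (SE, adjusted p = 5.8e-08). Within the C362A background, loss of Casp1 raised Mlkl by 0.71 ± 0.18 (SE, adjusted p = 0.00811), or 0.61 (adjusted p = 0.0517) without Casp1 KO replicate 2. Loss of Cflar lowered it, with a log2 fold change of -0.66 ± 0.18 (SE, adjusted p = 0.0203). This did not pass without Casp8 C362A KI Mlkl KO replicate 2 (-0.62, adjusted p = 0.0652) or 3 (-0.63, adjusted p = 0.075) or C362A Cflar Mlkl replicate 2 (-0.56, adjusted p = 0.0878). In MEFs Mlkl was at 4.64, 9.54 and 7.904 RPKM and 7.42, 9.18 and 7.06 RPKM, with a log2 fold change of 0.10 ± 0.24 (SE, adjusted p = 0.963).

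Zbp1, the sensor of Z-form nucleic acids, had the widest range of all members. It was at 2.59, 3.98 and 2.91 RPKM in Mlkl KO and 2.63, 7.41 and 2.56 RPKM in Casp8 D387A KI. It was at 47.6, 34.3 and 55.9 RPKM in the D387A Cflar Mlkl genotype and 5.798, 7.87 and 75.04 RPKM with Casp1 KO. With Ifnar1 KO it was at 83.8, 89.6 and 101 RPKM and with Fadd KO at 97.3, 92.9 and 103 RPKM. The libraries of these last groups lay above every library of the other 4 groups of the set. Against Mlkl KO the log2 fold changes were 3.86 ± 0.73 (SE, adjusted p = 0.000212), 3.23 ± 0.72 (SE, adjusted p = 0.0046), 4.86 ± 0.76 (SE, adjusted p = 6.12e-05) and 4.95 ± 0.76 (SE, adjusted p = 0.000229) in that order of genotypes.

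The log2 fold change of Zbp1 with Casp1 KO against Mlkl KO did not pass with limma-voom (2.26, adjusted p = 0.0598) or in a fit of only these 2 genotypes (3.23, adjusted p = 0.0717). Without Casp1 KO replicate 3, Zbp1 in that genotype was higher than in Mlkl KO by 1.12 (adjusted p = 0.0312). Its log2 fold change on loss of Casp1 went from -0.64 ± 0.62 (SE, adjusted p = 0.425) to -2.75 (adjusted p = 1.55e-06). On adding Ifnar1 KO it went from 1.63 ± 0.63 (SE, adjusted p = 0.0593) to 3.74 (adjusted p = 1.67e-07), and on adding Fadd KO from 1.72 ± 0.63 (SE, adjusted p = 0.0688) to 3.83 (adjusted p = 2.07e-07). All 3 steps thus passed the test without that library and missed it with it.

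C362A intestines had 0.986, 2.43 and 2.03 RPKM of Zbp1 in Mlkl KO and 134, 133 and 140.1 RPKM in Casp8 C362A KI Mlkl KO. They had 191, 177 and 131 RPKM with Casp1 KO and 71.2, 59.4 and 68.1 RPKM in the C362A Cflar Mlkl genotype. No mutant library overlapped the controls, and the rises were 6.22 ± 0.27 (SE, adjusted p = 8.23e-10), 6.51 ± 0.28 (SE, adjusted p = 7.34e-10) and 5.19 ± 0.26 (SE, adjusted p = 3.42e-09). Cflar loss lowered it in this background, with a log2 fold change of -1.03 ± 0.21 (SE, adjusted p = 0.00402). In MEFs Zbp1 had 9, 24 and 22 reads in Mlkl KO and 13, 14 and 9 reads in the mutant, or 0.129 to 0.476 RPKM.

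**Figure D2:**
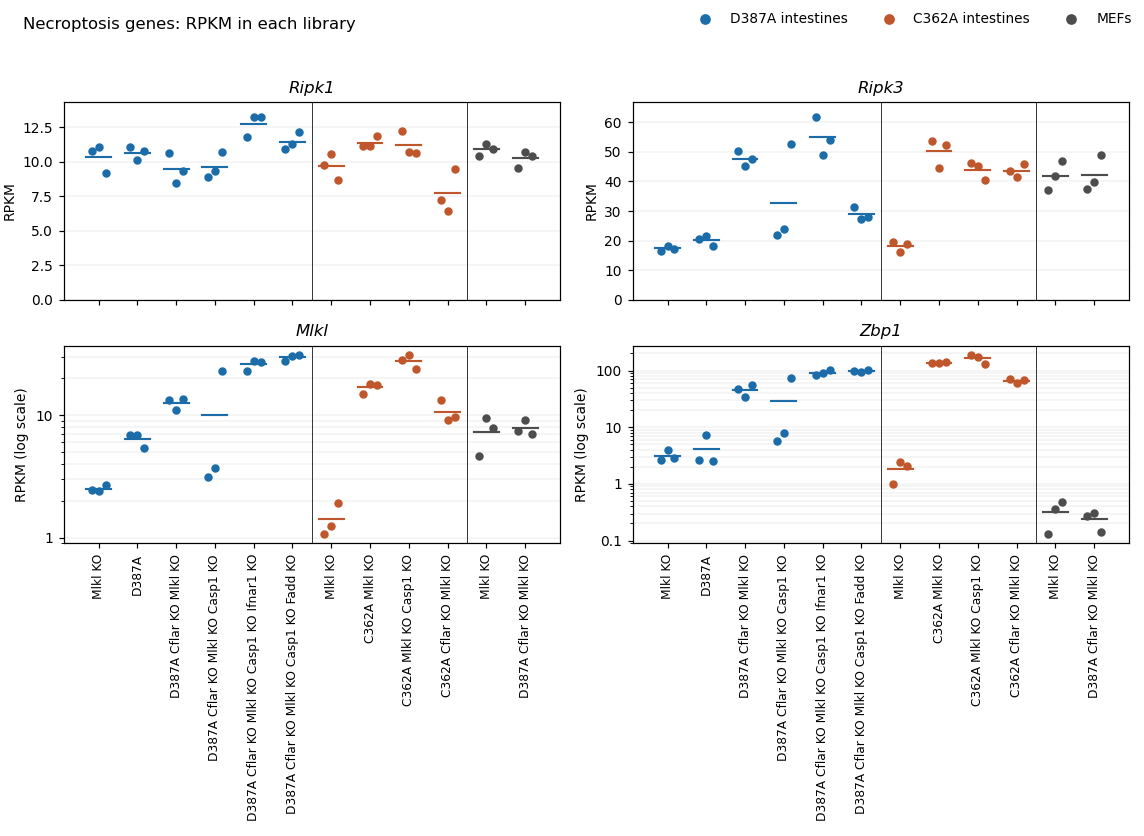
Levels of Ripk1 and Ripk3 (linear axes from 0) and of Mlkl and Zbp1 (log axes) in RPKM (y axis) in 12 groups (x axis), with a point for each library and a bar at the mean of 3. Ripk1 stays between 6.42 and 13.3 RPKM, Ripk3 and Mlkl are higher in most mutant intestines than in Mlkl KO, Zbp1 spans 0.129 RPKM in MEFs to 190.8 RPKM in Casp8 C362A KI Mlkl KO Casp1 KO, and replicate 3 of the D387A Cflar Mlkl Casp1 KO genotype lies above the other two.

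The balance of kinase to executioner transcripts also differed between genotypes, as a description with no test. Ripk3 over Mlkl was 6.42 to 7.67 in Mlkl KO of the D387A set and 3.53 to 4.07 in the D387A Cflar Mlkl genotype. It was 1.75 to 2.71 with Ifnar1 KO and 0.898 to 1.13 with Fadd KO. These 4 groups did not overlap each other. With Casp1 KO the ratio spanned 2.28 to 7.02 and overlapped all of them but the Fadd KO group, and in Casp8 D387A KI, where Mlkl is intact, it was 2.97 to 3.35. In the C362A set the ratio was 9.69 to 18.3 in Mlkl KO and 2.46 to 3.58 in Casp8 C362A KI Mlkl KO. It was 1.46 to 1.69 with Casp1 KO and 3.27 to 4.77 in the C362A Cflar Mlkl genotype, so all 3 mutant groups lay below their control. Ripk3 over Ripk1 went from 1.54 to 1.88 in Mlkl KO of the D387A set to 4.76 to 5.36 in the D387A Cflar Mlkl genotype.

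Among the receptors, Fas, whose ligand starts apoptosis, was higher in some mutant intestines. It was at 5.74, 5.105 and 4.19 RPKM in Mlkl KO of the D387A set and 6.12, 5.66 and 5.84 RPKM in Casp8 D387A KI. It was at 7.62, 5.91 and 7.15 RPKM in the D387A Cflar Mlkl genotype, where its log2 fold change of 0.46 ± 0.28 (SE, adjusted p = 0.162) did not pass the test although the libraries did not overlap Mlkl KO. Fas was at 4.97, 7.04 and 13.2 RPKM with Casp1 KO, 15.8, 27.6 and 28.01 RPKM with Ifnar1 KO and 12.02, 12.1 and 10.6 RPKM with Fadd KO. With Ifnar1 KO it was higher than in Mlkl KO by 2.25 ± 0.27 (SE, adjusted p = 6.33e-06) and than with Casp1 KO by 1.502 ± 0.26 (SE, adjusted p = 0.000952). With Fadd KO it was higher than in Mlkl KO by 1.21 ± 0.27 (SE, adjusted p = 0.00521). With Casp1 KO the value against Mlkl KO was 0.75 ± 0.27 (SE, adjusted p = 0.0626), or 0.26 without replicate 3, and passed in neither. It passed without replicate 1 of that genotype (1.01, adjusted p = 0.0104). Against Casp1 KO without replicate 3, the Fadd KO value passed as well (0.94, adjusted p = 0.00375, against 0.46, adjusted p = 0.249 with it).

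For the C362A set the Fas level was 3.33, 5.46 and 6.898 RPKM in Mlkl KO and 13.01, 13.8 and 18.1 RPKM in Casp8 C362A KI Mlkl KO. It was 24.3, 30.4 and 20.97 RPKM with Casp1 KO and 13.7, 9.91 and 8.22 RPKM in the C362A Cflar Mlkl genotype. All 9 mutant libraries exceeded the 3 controls, and the log2 fold changes were 1.52 ± 0.25 (SE, adjusted p = 0.000203), 2.27 ± 0.25 (SE, adjusted p = 1.32e-05) and 1.02 ± 0.25 (SE, adjusted p = 0.00322). Loss of Casp1 added 0.76 ± 0.24 (SE, adjusted p = 0.0255). This did not pass without Casp8 C362A KI Mlkl KO replicate 1 (0.66, adjusted p = 0.0948) or 2 (0.70, adjusted p = 0.0845), or without Casp1 KO replicate 1 (0.78, adjusted p = 0.0541) or 2 (0.59, adjusted p = 0.131). In MEFs Fas was at 8.08, 7.62 and 7.75 RPKM and 8.78, 8.76 and 8.42 RPKM, which did not overlap, with a log2 fold change of 0.15 ± 0.09 (SE, adjusted p = 0.843).

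Tnfrsf1a, the main receptor for TNF, was the most abundant of the 3 receptors per kilobase in every group. It ran from 77.1 to 114 RPKM in the D387A set, from 66.6 to 121 RPKM in the C362A set and from 81.2 to 92.2 RPKM in MEFs. Tnfrsf1a rose in Casp8 C362A KI Mlkl KO by 0.43 ± 0.12 (SE, adjusted p = 0.00899) and fell when Cflar was lost in that background, with a log2 fold change of -0.53 ± 0.12 (SE, adjusted p = 0.00673). With Casp1 KO in the C362A set it was higher by 0.36 ± 0.12 (SE, adjusted p = 0.03), which did not pass on leaving out any 1 of the 6 libraries (0.30 to 0.37, adjusted p from 0.0601 to 0.119). With Ifnar1 KO in the D387A set it was higher by 0.32 ± 0.10 (SE, adjusted p = 0.0164), though not without Mlkl KO replicate 3 (0.29, adjusted p = 0.061) or Ifnar1 KO replicate 3 (0.27, adjusted p = 0.0755).

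Tnfrsf10b, the TRAIL receptor, was at a low level in intestines. It was at 1.38, 1.16 and 1.32 RPKM in Mlkl KO and 2.64, 3.14 and 2.53 RPKM in the D387A Cflar Mlkl genotype, a rise of 1.10 ± 0.16 (SE, adjusted p = 1.14e-05) without overlap. With Casp1 KO it was at 2.17, 1.65 and 1.53 RPKM. That was a log2 fold change of -0.63 ± 0.15 (SE, adjusted p = 0.00272) on loss of Casp1. It was then still above Mlkl KO by 0.47 ± 0.16 (SE, adjusted p = 0.0449), which did not pass without any 1 Mlkl KO library or Casp1 KO replicate 1 (0.31 to 0.52, adjusted p from 0.0775 to 0.221). The C362A Cflar Mlkl group, at 2.24, 2.44 and 2.19 RPKM, lay above the 1.84, 1.88 and 1.52 RPKM of Mlkl KO with a log2 fold change of 0.39 ± 0.16 (SE, adjusted p = 0.0569). The C362A genotypes with Cflar intact did not pass (0.02 ± 0.16, adjusted p = 0.932, and with Casp1 KO -0.05 ± 0.16, adjusted p = 0.828). MEFs had 13.04, 12.2 and 12.4 RPKM in Mlkl KO and 14.3, 11.9 and 13.5 RPKM in the mutant.

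Counted over the members, none of the 10 passed the test in Casp8 D387A KI against Mlkl KO with edgeR, limma-voom or DESeq2, which gave no adjusted p for Mlkl. Mlkl was the 1 member with an unadjusted p under 0.05. Of all 18360 genes tested, 0.00545% passed. The groups did not overlap for 15.6% of genes and for 1 of the 10 members. The log2 fold change of 0.43 for Zbp1 had an approximate 95% interval of -1.03 to 1.89, and for Mlkl the interval was 0.31 to 2.39. These intervals use the SE with a normal quantile, which makes them somewhat too narrow for groups this small.

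In the D387A Cflar Mlkl intestines 7 of the 10 members passed the test, where 59.4% of all genes passed. Casp8, Ripk3, Mlkl, Zbp1 and Tnfrsf10b were higher and Cflar and Fadd were lower. Of these, 4 were called at over 2-fold, Ripk3, Mlkl, Zbp1 and Tnfrsf10b, against 22.2% of all genes. With Casp1 KO added, 4 of 10 passed (background 21.4%) and 2 were called (4.34%), Mlkl and Zbp1. Zbp1 remained called without replicate 3, and neither was called with limma-voom or in a fit of those 2 genotypes alone. With Ifnar1 KO added as well, 8 of 10 passed (48.3%) and 4 were called (12.4%), Ripk3, Mlkl, Zbp1 and Fas. With Fadd KO in place of Ifnar1 KO, 6 of 10 passed (18.4%) and 4 were called (3.78%), Fadd itself, Mlkl, Zbp1 and Fas.

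On loss of Casp1 in the D387A Cflar Mlkl background 3 of 10 passed (46.9% of all genes), Casp8 and Tnfrsf10b lower and Cflar higher. None was called by edgeR or DESeq2 (13.4% of all genes by edgeR), 1 was called by limma-voom, and 4 had an unadjusted p under 0.05. Without Casp1 KO replicate 3, 6 passed (48.9% of all genes in that fit) and 3 were called (15.8%), Ripk3, Mlkl and Zbp1, all lower. On loss of Ifnar1 5 of 10 passed (30.6%), all higher, and 2 were called (5.31%), Mlkl and Fas. Without that library these counts were 7 (39.2%) and 4 (9.31%). On loss of Fadd 2 of 10 passed (17.9%) and both were called (3.44%), Fadd and Mlkl, or 8 (23.1%) and 3 (4.85%) without that library. The members that then joined were Casp8, Ripk1, Ripk3, Zbp1, Fas and Tnfrsf1a, all higher. Without and with the library the log2 fold change was 0.42 and 0.24 for Casp8, 0.34 and 0.25 for Ripk1, 0.32 and -0.19 for Ripk3, and 0.29 and 0.15 for Tnfrsf1a. On loss of Ifnar1 those that joined were Zbp1 and Tnfrsf1a (0.39 without the library and 0.25 with it).

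Casp8 C362A KI Mlkl KO intestines had 8 of 10 members past the test (42.1%) and 4 called (18%), Ripk3, Mlkl, Zbp1 and Fas. The same 4 were called with Casp1 KO (10.5%), where 6 of 10 passed (36%). They were called again in the C362A Cflar Mlkl genotype (24.6%), where 7 of 10 passed (52.8%). Fas was close to the 2-fold limit there, and 3 members were called without replicate 1 of Mlkl KO, which put Fas at 0.79, or without replicate 1 of the mutant (0.80). On loss of Casp1 in this background 3 passed (33.5%), all higher (Fadd, Mlkl and Fas). None was called by edgeR, limma-voom or DESeq2 (11.3% by edgeR), and 4 had an unadjusted p under 0.05. The count that passed was 1 without replicate 2 of either genotype. On loss of Cflar 5 passed (19.4%), all lower (Cflar, Ripk1, Mlkl, Zbp1 and Tnfrsf1a). Of these 1 was called (6.06%), Zbp1, and none without C362A Cflar Mlkl replicate 2. In MEFs 1 of 10 passed (0.11%), Cflar, which was also the 1 with an unadjusted p under 0.05. None was called there by edgeR, limma-voom or DESeq2 (0.0711% by edgeR).

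**Figure D3:**
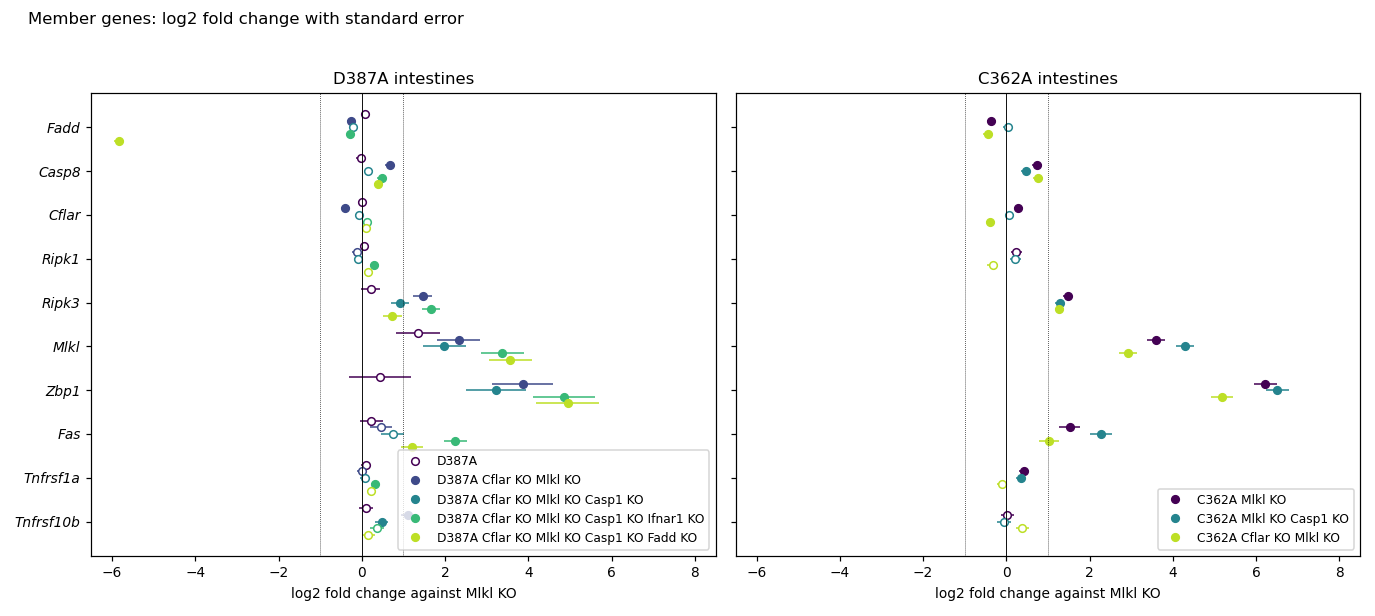
Log2 fold changes against Mlkl KO of the same set (x axis, with the standard error as bars) for the 10 members in each mutant genotype of the intestines, filled where the adjusted p was under 0.05, with dotted lines at -1 and 1. Mlkl and Zbp1 lie farthest to the right in the mutant intestines, and Fadd stands at -5.84 in its knockout. MEFs are not shown.

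The median log2 fold change over the 10 members against Mlkl KO was 0.09 for Casp8 D387A KI, 0.56 for the D387A Cflar Mlkl genotype, 0.32 with Casp1 KO, 0.42 with Ifnar1 KO and 0.31 with Fadd KO. The median with Casp1 KO was 0.12 without replicate 3. It was 0.58, 0.42 and 0.57 in the 3 C362A genotypes and 0.01 in MEFs, while the median over all genes stayed within 0.034 of 0 in each comparison. For the steps it was -0.16 on Casp1 loss, 0.36 on Ifnar1 loss and 0.21 on Fadd loss in the D387A set (-0.36, 0.50 and 0.33 without Casp1 KO replicate 3), and -0.05 on Casp1 loss and -0.51 on Cflar loss in the C362A set.

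Whether a change differed between contexts was tested as an interaction in a fit across sets. The response to D387A Cflar Mlkl and to C362A Cflar Mlkl, each against its own Mlkl KO, differed for none of the 10 members by edgeR or limma-voom. There, 1 had an unadjusted p under 0.05, and 0.127% of 19643 genes passed. That member was Tnfrsf10b, 0.71 ± 0.21 (SE, adjusted p = 0.0888) higher in the D387A genotype. It passed without replicate 3 of C362A Mlkl KO (0.79, adjusted p = 0.0368) or of C362A Cflar Mlkl (0.68, adjusted p = 0.0462). For Zbp1 the difference was -1.32 ± 0.83 (SE, adjusted p = 0.369) and for Mlkl -0.60 ± 0.63 (SE, adjusted p = 0.62), and these standard errors leave differences of over 2-fold possible.

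Casp1 loss acted differently on Cflar in the D387A Cflar Mlkl and Casp8 C362A KI Mlkl KO backgrounds, by 0.57 ± 0.14 (SE, adjusted p = 0.00705), the 1 member of 10 that passed (16.9% of genes). In fits of each set the log2 fold change of Cflar was 0.33 in the first background and -0.22 ± 0.10 (SE, adjusted p = 0.118) in the second, where it did not pass the test. It passed there without Casp1 KO replicate 1 of the C362A set (-0.32, adjusted p = 0.0444). The first background carries the Cflar KO allele and the second an intact Cflar. Without Casp1 KO replicate 3 of the D387A set 5 members passed (21.9% of 20096 genes in that fit), Casp8 (-0.40), Cflar (0.55), Ripk3 (-0.83), Mlkl (-2.55) and Zbp1 (-3.01). With it the differences were -0.22 for Casp8, -0.33 for Ripk3, -1.03 for Mlkl and -0.91 for Zbp1. Negative values mean a lower log2 change in the D387A background. Without Casp1 KO replicate 1, Tnfrsf10b passed (-0.70, adjusted p = 0.0338).

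The response to the D387A Cflar Mlkl genotype differed between intestines and MEFs for 5 of 10 members (38.4% of 18862 genes). It was larger in intestines for Casp8 by 0.58 ± 0.16 (SE, adjusted p = 0.00658), Ripk3 by 1.47 ± 0.30 (SE, adjusted p = 0.000478) and Mlkl by 2.26 ± 0.67 (SE, adjusted p = 0.00989). It was also larger for Tnfrsf10b by 1.05 ± 0.19 (SE, adjusted p = 0.000123) and Zbp1 by 4.29 ± 1.67 (SE, adjusted p = 0.0473). With the replicate number as a block Zbp1 was at 4.29 (adjusted p = 0.0531). It did not pass on leaving out 9 of the 12 libraries in turn, at 3.94 to 4.72 over the 12. Tissue, culture and, per the study's methods, library kit differ between intestines and MEFs and cannot be told apart.

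The wider pathway was taken as 39 genes beside the members. It comprises death ligands, other receptors of the family, and the ubiquitin ligases, deubiquitinases and kinases of the TNF receptor complex. Caspase-8 substrates and other RHIM or Z-nucleic-acid genes complete it. Of the 37 tested in the D387A set, 19 rose and 5 fell in the D387A Cflar Mlkl genotype (59.4% of all genes passed in either direction), and 13 rose and 2 fell with Casp1 KO (21.4%). The last counts were 10 and 4, of 38 tested, without Casp1 KO replicate 3 (17.1%). With Ifnar1 KO 24 rose and 3 fell (48.3%), and with Fadd KO 17 rose and 0 fell (18.4%). The ligand gene Tnf was at 5.62 ± 0.75 (SE, adjusted p = 5.35e-06) and Tnfsf15 at 6.01 ± 0.77 (SE, adjusted p = 3.24e-06) in the D387A Cflar Mlkl genotype. Over the 3 control libraries Tnf had 6 reads and Tnfsf15 2, so these sizes are poorly determined. Tnfrsf1b, the other TNF receptor, rose by 2.39 ± 0.16 (SE, adjusted p = 1.34e-09), and Tnfrsf25 fell (log2 fold change -2.59 ± 0.26, adjusted p = 1.49e-07).

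Other genes of the list with large changes included regulators and ligands. With Casp1 KO the ubiquitin-editing enzyme gene Tnfaip3 (A20) was higher by 1.66 ± 0.24 (SE, adjusted p = 0.000182), or 1.11, adjusted p = 1.48e-06 without replicate 3, and Tnfrsf26 by 1.45 ± 0.39 (SE, adjusted p = 0.0146). With Ifnar1 KO the ligase gene Birc3 (cIAP2) was higher by 2.31 ± 0.20 (SE, adjusted p = 2.35e-07) and Tnfsf10, which encodes TRAIL, by 2.33 ± 0.26 (SE, adjusted p = 2.37e-06). With Fadd KO Tnfsf10 was higher by 3.25 ± 0.26 (SE, adjusted p = 1.09e-06) and Tlr3, a sensor of double-stranded RNA, by 2.59 ± 0.21 (SE, adjusted p = 1.22e-06), while Tnf was at 3.00 ± 0.95 (SE, adjusted p = 0.0361).

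Of the 38 tested in the C362A set, 22 rose and 3 fell in Casp8 C362A KI Mlkl KO (42.1% of all genes passed), and 22 rose and 0 fell with Casp1 KO (36%). In the C362A Cflar Mlkl genotype 17 rose and 5 fell (52.8%). Tnf was higher by 5.07 ± 0.41 (SE, adjusted p = 2.31e-07), 3.61 ± 0.43 (SE, adjusted p = 2.44e-05) and 4.91 ± 0.42 (SE, adjusted p = 2.61e-07) in these 3 genotypes. Tlr3 was higher by 3.02 ± 0.21 (SE, adjusted p = 4.53e-08) in Casp8 C362A KI Mlkl KO and by 2.63 ± 0.21 (SE, adjusted p = 1.38e-07) in the C362A Cflar Mlkl genotype.

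For the steps between mutants, Casp1 loss left 5 of the pathway genes higher and 10 lower in the D387A Cflar Mlkl background, where 46.9% of all genes passed. It left 9 higher and 6 lower in the C362A background (33.5%). These shares are near or below those of all genes. In both Casp6 rose, by 1.62 ± 0.15 (SE, adjusted p = 2.14e-07) and 2.23 ± 0.15 (SE, adjusted p = 2.1e-07). In both Tnfrsf1b fell, with log2 fold changes of -1.45 ± 0.15 (SE, adjusted p = 7.8e-07) and -1.46 ± 0.12 (SE, adjusted p = 1.2e-06). Ifnar1 loss left 19 higher and 0 lower (30.6%), with Tnfrsf23 at 1.60 ± 0.30 (SE, adjusted p = 0.00126) and Tnf at 1.59 ± 0.45 (SE, adjusted p = 0.0143), which was 2.96, adjusted p = 3.96e-07 without Casp1 KO replicate 3. Fadd loss left 10 higher and 3 lower (17.9%), with Tnfsf10 at 1.89 ± 0.25 (SE, adjusted p = 8.47e-05) and Tnf at -1.63 ± 0.54 (SE, adjusted p = 0.0462). The fall of Tnf did not pass without that library (-0.26, adjusted p = 0.631). Leaving out Casp1 KO replicate 3 of the D387A set, the counts higher and lower were 4 and 17 on Casp1 loss (48.9%), 24 and 2 on Ifnar1 loss (39.2%) and 15 and 0 on Fadd loss (23.1%). Cflar loss in the C362A background left 1 higher and 11 lower (19.4%), with Tnfsf10 at -1.09 ± 0.22 (SE, adjusted p = 0.0038). Median log2 fold changes of the pathway were 0.28 in the D387A Cflar Mlkl genotype, 0.51 with Ifnar1 KO and 0.48 in Casp8 C362A KI Mlkl KO. The median was -0.24 on Cflar loss and 0.07 in Casp8 D387A KI.

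Of the 9 interferon-stimulated genes, 7 rose in the D387A Cflar Mlkl genotype (median log2 fold change 1.76), where 59.4% of all genes passed the test. All 9 rose with Casp1 KO (median 3.10, with 21.4% of all genes past the test), Ifnar1 KO (3.73 and 48.3%) and Fadd KO (5.36 and 18.4%). All 9 rose in the 3 C362A genotypes (5.28, 6.63 and 3.85, with 42.1%, 36% and 52.8%), and all 9 fell on Cflar loss in the C362A background (-1.06 and 19.4%). With Casp1 KO 7 rose (1.88 and 17.1%) when replicate 3 was left out. The medians were 0.03 in Casp8 D387A KI and -0.32 in MEFs. Their summed level was 407 to 672 CPM in Mlkl KO of the D387A set and 1007 to 1532 CPM in the D387A Cflar Mlkl genotype. It was 4727 to 6725 CPM with Ifnar1 KO, in embryos that lack a chain of the type I interferon receptor, and 8179 to 8860.5 CPM with Fadd KO. For the C362A set the sums were 261 to 487 CPM in Mlkl KO and 5808 to 6779.5 CPM in Casp8 C362A KI Mlkl KO. They were 10483 to 12044 CPM with Casp1 KO and 2356 to 3577 CPM in the C362A Cflar Mlkl genotype. In MEFs the sum was 54.7 to 88.9 CPM in Mlkl KO and 49.4 to 91.97 CPM in the mutant. The part of these genes in the members' changes was not tested.

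**Figure D4:**
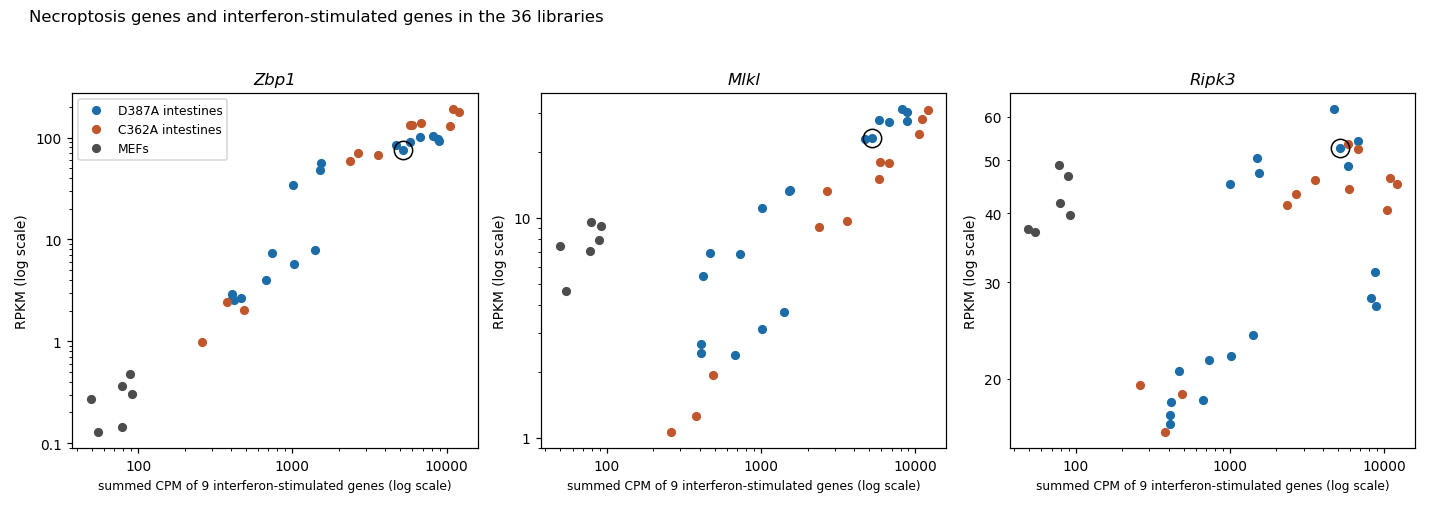
RPKM of Zbp1, Mlkl and Ripk3 (y axes) against the summed CPM of the 9 interferon-stimulated genes (x axis) in 36 libraries, with replicate 3 of the D387A Cflar Mlkl Casp1 KO genotype ringed. That library, at 5192 CPM, sits with the Ifnar1 KO libraries (4727 to 6725 CPM) rather than with the other two of its genotype.

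Marker genes of intestinal cell types also differed between genotypes, and in whole tissue fewer cells of a type and less RNA per cell cannot be told apart. Counts of markers past the test are to be read beside the shares of all genes already given for each comparison. Absorptive enterocyte markers (Fabp1, Fabp2, Apoa1, Apoa4 and Alpi) summed to 41602 to 48011 CPM in Mlkl KO of the D387A set and 1583 to 3489 CPM in the D387A Cflar Mlkl genotype. The sums were 22040.4 to 31891 CPM with Casp1 KO, 25804 to 38061 CPM with Ifnar1 KO and 43637 to 50499 CPM with Fadd KO. Against Mlkl KO 5, 4, 2 and 1 of these 5 markers were lower in the 4 genotypes in that order. C362A intestines had 35941 to 58529 CPM in Mlkl KO, 18948 to 23323 CPM in Casp8 C362A KI Mlkl KO (4 of 5 lower), 56821 to 72303 CPM with Casp1 KO (1 higher) and 2805 to 9129.8 CPM in the C362A Cflar Mlkl genotype (5 of 5 lower).

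Neutrophil markers (5 genes, 4 tested) summed to 2.17 to 15.4 CPM in Mlkl KO of the D387A set and 31.2 to 117 CPM in the D387A Cflar Mlkl genotype, where 3 passed higher and 1 lower. The sums were 7.36 to 21.9 CPM in Mlkl KO of the C362A set and 271 to 338 CPM in Casp8 C362A KI Mlkl KO, where 3 passed higher. Ptprc, the marker of all leukocytes, rose in both. It was at 10.7 to 12.8 CPM in Mlkl KO and 19.3 to 31.7 CPM in the D387A Cflar Mlkl genotype, and at 12.2 to 15.7 and 43.8 to 61.4 CPM in the C362A pair. In the D387A set Ptprc was at 14.5 to 19.0 CPM with Casp1 KO, 21.5 to 26.7 CPM with Ifnar1 KO and 12.9 to 14.03 CPM with Fadd KO. In the C362A set it was at 16.0 to 17.1 CPM with Casp1 KO and 28.7 to 38.9 CPM in the C362A Cflar Mlkl genotype, where neutrophil markers summed to 138 to 236 CPM. Neutrophil markers were at 3.29 to 15.2 CPM with Fadd KO and at 11.4 to 15.9 CPM with Casp1 KO in the C362A set, and none passed there. The 4 erythroid markers summed to 85.6 to 1454 CPM over the intestines. All 4 rose on loss of Casp1 in the D387A set, and all 4 fell on adding Ifnar1 KO or Fadd KO. These steps share the Casp1 KO group, which was uneven at 248 to 1454 CPM. Its range overlapped the D387A Cflar Mlkl genotype (135 to 271 CPM) and Fadd KO (101 to 281 CPM) but not Ifnar1 KO (85.6 to 165 CPM). The T and NK cell markers (5 genes) summed to 4.15 to 6.403 CPM in Mlkl KO of the D387A set, 13.1 to 21.3 CPM in the D387A Cflar Mlkl genotype and 1.55 to 3.099 CPM with Casp1 KO. In the C362A set they summed to 5.19 to 6.45 CPM in Mlkl KO, 38.4 to 40.03 CPM in Casp8 C362A KI Mlkl KO, 9.07 to 9.28 CPM with Casp1 KO and 24.3 to 39.3 CPM in the C362A Cflar Mlkl genotype. Of these markers 1 of 2 tested rose in the D387A Cflar Mlkl genotype, and 3 of 4 tested rose in both Casp8 C362A KI Mlkl KO and the C362A Cflar Mlkl genotype. Smooth muscle markers summed to 3775 to 4146 CPM in Mlkl KO and 5071 to 6267 CPM in the D387A Cflar Mlkl genotype, and to 1963 to 3094 and 4369.6 to 5242 CPM in the C362A counterparts. For fibroblast markers the sums were 3628 to 3985 CPM in Mlkl KO and 4781 to 4917 CPM in the D387A Cflar Mlkl genotype. In the C362A counterparts they were 1761 to 3508 and 1860 to 2704 CPM. Macrophage markers summed to 387.3 to 415 CPM in Mlkl KO of the D387A set, 286 to 384 CPM in the D387A Cflar Mlkl genotype, 344 to 606 CPM with Casp1 KO, 509 to 581 CPM with Ifnar1 KO and 476 to 498 CPM with Fadd KO. In the C362A set they summed to 356 to 417 CPM in Mlkl KO, 496 to 558 CPM in Casp8 C362A KI Mlkl KO, 530.1 to 572 CPM with Casp1 KO and 352 to 413 CPM in the C362A Cflar Mlkl genotype. In both Cflar Mlkl genotypes 5 of these 6 markers rose and Csf1r fell. Their sum did not rise: it lay below Mlkl KO in the D387A Cflar Mlkl genotype and overlapped Mlkl KO in the C362A Cflar Mlkl genotype. The part of these cell types in the members' changes was not tested.

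The genes most like each member were found over the 30 intestine libraries, each set centred on its own Mlkl KO, among 18196 genes, as a description with no test, since libraries of a genotype move together. The closest to Zbp1 were Psmb8 (r = 0.993), Sp100 (0.990) and Tap1 (0.990), and to Mlkl B2m (0.973), Crybg1 (0.969) and Muc3 (0.969). For Ripk3 they were Relb (0.967), Nfkbib (0.964) and Lsr (0.958), for Fas Zfp429 (0.969), Ctsh (0.949) and Krt16 (0.940), and for Casp8 Ly6a (0.945), Tigar (0.943) and Pim1 (0.941). For the other members the closest gene had a lower r, with Ripk1 nearest to Clca4b (0.927), Cflar to Ptpre (0.925), Tnfrsf1a to Amigo3 (0.901), Tnfrsf10b to Ctbp2 (0.871) and Fadd to Gm26982 (0.713). Between members the highest were Mlkl with Zbp1 (0.953), Mlkl with Fas (0.884) and Ripk3 with Zbp1 (0.869).

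Ordered by mean level across sets that were scaled separately, Zbp1 ran from 166 ± 31.5 RPKM (SD, n = 3) in Casp8 C362A KI Mlkl KO Casp1 KO and 136 ± 3.79 in Casp8 C362A KI Mlkl KO, which overlapped, down to 0.241 ± 0.0866 in mutant MEFs, which overlapped Mlkl KO MEFs. Mlkl ran from 29.7 ± 1.85 in the Fadd KO genotype, 27.6 ± 3.43 in Casp8 C362A KI Mlkl KO Casp1 KO and 26.05 ± 2.77 in the Ifnar1 KO genotype, each overlapping the next, to 1.42 ± 0.459 in Mlkl KO of the C362A set. Casp8 was highest at 49.6 ± 2.603 in the C362A Cflar Mlkl genotype, which overlapped Casp8 C362A KI Mlkl KO at 48.8 ± 1.33, and lowest at 14.2 ± 1.61 in Mlkl KO MEFs, which overlapped the mutant MEFs. Cflar was highest in Mlkl KO MEFs at 11.1 ± 0.528 and lowest in D387A Cflar Mlkl intestines at 4.63 ± 0.303, neither of which overlapped its neighbour in the order.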

How the data were processed

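Single-end mRNA-seq reads of 50 bases from intestines of embryos at embryonic day 18.5 and from MEFs were aligned by the authors with GSNAP to GRCm38/mm10, and uniquely mapped reads were kept. The counting program, its annotation and its use of strand are not given in the sources used here, and the study's methods and the sample labels name different library kits and instruments. The authors deposited, for each library, a raw count per gene, a gene width and an RPKM value. The RPKM printed here were computed from the deposited counts and widths with TMM-scaled totals of each set. The deposited RPKM column was used only to work out the library total it implies. Reads on genes were 75.6% to 88.6% of that total, so printed and deposited RPKM are on different scales.

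Counts were fitted with edgeR 4.0.16 in R 4.3.3 (filterByExpr with min.count 10 and min.total.count 15, TMM, quasi-likelihood test, Benjamini-Hochberg adjustment, prior count of 0.125), all genotypes of a set together. The D387A set had 18360 genes tested, the C362A set 19408 and the MEFs 15465. Interactions were fitted over 19643 or 18862 genes. The standard error is the fold change over the square root of F. The study's thresholds were used, although its methods name limma. limma 3.58.1 (voom), DESeq2 1.42.0, RLE size factors, other filters, fits of 2 genotypes, a replicate block and leaving out each library were alternatives. In simulated counts for the 3 comparisons with Mlkl KO that were simulated, the test recovered 71.6% to 79.1% of genes changed 2-fold and 93.9% to 100% of those changed 4-fold. Those counts held 66 or 67 changed genes at each fold and left all others unchanged. Far more genes passed in the 2 intestine comparisons, so recovery there could differ.

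Genes named are the 10 members, up to the 4 pathway genes with the largest change among those past the test in a comparison, the interferon-stimulated and marker lists as sums, the targeted genes, and the 3 genes most like each member. The members and lists were chosen with earlier results of these data known. Some genes of the lists are not reported here and stayed out of the list counts and sums. The 36 pairs of libraries within genotypes differed by 4.70 to 64.9 times sampling noise per gene (chi-square), so none is a copy. Deviations of same-numbered MEF libraries correlated in all 3 pairs (0.181 to 0.310), so replicate number was also run as a block. That the MEFs were paired is inferred from this and is not given by the labels. Promoter sequences are from RefSeq, assembly GRCm38.p6.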

Additional observations from a re-analysis of the deposited data

Results flagged for a closer look

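Effects that differed between contexts by a test of the difference itself, an interaction in a joint fit, were flagged for 6 results. The log2 fold change of Cflar on Casp1 loss was higher by 0.57 in the D387A Cflar Mlkl background than in Casp8 C362A KI Mlkl KO (0.33 and -0.22 in fits of each set). The value of -0.22 did not pass the test by itself. The first background carries the Cflar KO allele and the second an intact Cflar. The response to the D387A Cflar Mlkl genotype was larger in intestines than in MEFs by 0.58 for Casp8, 1.47 for Ripk3, 2.26 for Mlkl, 4.29 for Zbp1 and 1.05 for Tnfrsf10b. Groups held 3 libraries, so single libraries were not tested as outliers.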

How the results depend on the processing

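Of the 65 member changes past the test, 41 kept their direction and their side of the threshold under every alternative run and none changed direction. Under the alternatives that keep all libraries, counts of members moved by over 1.5 times in these cases, and every other count stayed within 1 of its value in the main analysis. For members called over 2-fold, the moves were as follows. With limma-voom the count was 0 for Casp1 KO against Mlkl KO (2 in the main analysis), 1 on Casp1 loss in the D387A set (0), and 2 interactions for Casp1 loss (1). With DESeq2 it was 1 for Casp1 KO, for Ifnar1 loss and for Fadd loss (2 each), and it gave no adjusted p for Mlkl in the 8 comparisons of the D387A set. In fits of only the 2 genotypes compared it was 1 for Casp8 D387A KI (0), 0 for Casp1 KO (2), 1 for Ifnar1 loss (2), 1 for Fadd loss (2) and 0 for Cflar loss (1). For members past the test, limma-voom gave 1 for Casp1 KO (4) and 5 on Casp1 loss (3), DESeq2 gave 1 on Fadd loss (2), and fits of 2 genotypes gave 1 for Casp8 D387A KI (0), 0 for Casp1 KO (4), 1 on Ifnar1 loss (5) and 1 on Fadd loss (2). Leaving out 1 library at a time gave counts called of 1 to 4 for Casp1 KO against Mlkl KO, 0 to 3 for Casp1 loss, 1 to 4 for Ifnar1 loss, 1 to 3 for Fadd loss, 3 to 4 for the C362A Cflar Mlkl genotype and 0 to 1 for Cflar loss. It gave counts passing the test of 2 to 6 for Casp1 loss, 2 to 7 for Ifnar1 loss, 1 to 8 for Fadd loss, 1 to 3 for Casp1 loss in the C362A set and 0 to 1 in MEFs. It gave 0 to 1, 1 to 5 and 4 to 5 interactions for the 3 tests. Of the values that passed the test only under an alternative, those that changed sign were Mlkl on Casp1 loss (-1.88 to 0.083 over the fits that leave out 1 library) and Ripk3 on Fadd loss (-0.19 in the main analysis, -0.41 to 0.32 over those fits, 0.32 without Casp1 KO replicate 3). A further 73 member values passed under no setting, and 30 of these changed sign under some setting. The causes were not tested.

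Replicate numbers gave no general pairing of the intestines: deviations correlated over 0.1 in 9 of 45 same-numbered pairs in the D387A set and 4 of 18 in the C362A set. Those over 0.1 included Mlkl KO with Casp8 D387A KI (0.111, 0.220 and 0.202). With a replicate block, Tnfrsf10b in Casp1 KO against Mlkl KO (adjusted p = 0.0534), Cflar in Casp8 C362A KI Mlkl KO (0.0553) and the Zbp1 interaction with MEFs (0.0531) no longer passed the test, and Ripk3 on Casp1 loss (0.0482), Zbp1 on Ifnar1 loss (0.0337) and Fadd loss (0.0405) and Tnfrsf10b in C362A Cflar Mlkl (0.0499) passed only with it. The block moved no other member value across the threshold, and 4 members had an interaction with MEFs under it (5 without). Raw totals in place of TMM moved 40 of 120 group mean levels by over 1 SD, by at most 15.1%. With 3 libraries a group, 28.4% to 41.8% of simulated 1.5-fold changes were recovered in counts where few genes changed, so small changes of members can be missed.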
